A study of Mus musculus with 2 samples.

Results

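The nuclear-encoded subunits of oxidative phosphorylation were examined in primary perivascular cells (PCs) of the mouse aorta, in 1 wild-type (WT) library and 1 Kai1−/− library. Members were chosen by gene symbol alone, from the families Nduf (complex I), Sdh (complex II), Uqcr (complex III), Cox4 to Cox8 (complex IV) and Atp5 (complex V), which gave 84 of the 20211 symbols in the expression tables. They comprised 37 genes of complex I, 4 of complex II, 8 of complex III, 18 of complex IV and 17 of complex V. On reading the names, 74 encode subunits used broadly across tissues and 7 encode isoforms that are restricted to certain tissues. The other 3, Atp5s, Atp5sl and Cox7a2l, share the naming pattern and were not classed as subunits. Ndufa4, since found in complex IV, was counted under complex I by its symbol.

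Oxidative phosphorylation takes place in the inner mitochondrial membrane, where complexes I and II feed electrons into ubiquinone, complex III passes them to cytochrome c, and complex IV, cytochrome c oxidase, hands them to oxygen. Complexes I, III and IV pump protons across the membrane, and complex V, the ATP synthase, uses the resulting gradient to make ATP. All subunits of complex II and most of those of the other complexes are encoded in the nucleus, while a few central subunits are encoded in mitochondrial DNA and are not among the genes described here.

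Both cultures were C57BL/6 perivascular cells from aorta grown in DMEM with serum, and they differed in genotype, wild type or Kai1 KO. KAI1, also called CD82, is a tetraspanin of the cell surface, and the study asked how it acts on angiogenesis through PCs. How the knockout allele was made, how many animals went into a culture and their sex are not given in the sources used here. With 1 library per genotype there was no replicate check, so no test could be made, and every difference below is a difference between 2 libraries and not shown to be one between genotypes.

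The values are RPKM, reads corrected for the length of the transcript and the size of the library. The ratio used throughout is the log2 of Kai1−/− over WT, with 0.1 added to both RPKM values, so that a fold between low values comes out too small. Only genes whose RPKM averaged 1 or more over both libraries were kept, 10068 in all. Cd82, which encodes KAI1, stood at 12.8 in WT and at 2.62 in Kai1−/−, a ratio of -2.25. The RPKM of all genes summed to 885190 in WT and 1238890 in Kai1−/−, so the 2 libraries were not on an equal total. Cytosolic ribosomal protein genes held 37.3% of the first sum and 48.6% of the second. The depth was estimated from the steps between low values as about 29500000 reads for WT and 26600000 for Kai1−/−. Of 4 Y-linked genes read, each was detected in the WT library, Ddx3y at 6.56, and each was at 0 in Kai1−/−.

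As to the labelled cell type, the contractile genes Acta2 and Tagln were high in both libraries. Acta2 was at an RPKM of 3823 in WT and 2580 in Kai1−/−, and Cnn1 was at 119.6 and 49.2. Other mural and smooth muscle markers were low, with Myh11 at 2.96 and 0.346, Des at 1.23 and 0.2497 and Notch3 at 1.002 and 0.464. Of 10 mural and smooth muscle markers, 7 were kept, with a median log2 ratio of -1.04. Among these 7, 5 were over 1.5-fold lower in the Kai1−/− library, where 16.2% of all genes kept were. Of the markers used for pericytes, Pdgfrb was at 44.7 in WT and 31.6 in Kai1−/−, and Cspg4, which encodes NG2, was at 15.4 and 8.27. Mcam was lower, at 4.90 and 0.264, and Rgs5 was near 0, at 0.0630 and 0.233. Of 8 adventitial fibroblast markers, 7 were kept, with a median of -1.13, and Cd34 alone of these was higher. None of 8 endothelial markers reached an RPKM of 0.5 in either library, and all 8 were at 0 in Kai1−/−. Of 8 macrophage markers 2 were kept, and Csf1r stood at 11.7 in WT and 2.66 in Kai1−/−. In bulk RNA, fewer cells of a type and less RNA per cell cannot be told apart, and the part of these marker differences in the values below was not tested.

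The coding sequences of the COX6B pair and 3 promoters are given first, because the results turn on how isoform genes of the same subunit separated and because the promoters of this gene set hold known motifs. COX6B sits on the outer face of complex IV. Its broadly used gene is Cox6b1 and its testis-enriched gene is Cox6b2. The coding sequences of both genes are from the mm9 (NCBI37) annotation, 5′ to 3′ on the coding strand, and capitals mark the bases at which a gene differs from its partner or has no counterpart in the alignment.
Cox6b1: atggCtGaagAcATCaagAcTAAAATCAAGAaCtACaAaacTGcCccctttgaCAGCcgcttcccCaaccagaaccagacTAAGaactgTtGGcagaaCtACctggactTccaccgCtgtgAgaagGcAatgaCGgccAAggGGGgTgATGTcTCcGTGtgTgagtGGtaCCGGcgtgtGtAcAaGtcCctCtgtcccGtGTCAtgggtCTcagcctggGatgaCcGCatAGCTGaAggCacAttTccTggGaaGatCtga
Cox6b2: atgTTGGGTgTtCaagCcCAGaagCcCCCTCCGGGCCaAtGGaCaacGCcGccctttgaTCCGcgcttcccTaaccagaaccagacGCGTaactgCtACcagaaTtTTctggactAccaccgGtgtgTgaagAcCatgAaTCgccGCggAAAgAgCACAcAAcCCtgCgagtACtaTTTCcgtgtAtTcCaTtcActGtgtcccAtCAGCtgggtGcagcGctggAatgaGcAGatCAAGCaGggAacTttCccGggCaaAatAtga
The coding sequence of Cox6b1 is 261 bases and that of Cox6b2 is 267 bases, and they were identical at 62.5% of aligned bases. The longest run of bases shared in the alignment was 14. Identity over the other pairs of isoform genes ran from 53.6% for Cox8a and Cox8b to 72.7% for Atp5g1 and Atp5g2, which shared a run of 21 bases.

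Promoter sequences from RefSeq (GRCm38.p6) were matched for 70 of the 84 members, as windows of 250 bases before to 50 bases after the gene start. Of each window printed here the 200 bases before the gene start are shown, all on the minus strand, at chr7:30626115-30626314 for Cox6b1, chr7:4753095-4753294 for Cox6b2 and chr13:74350241-74350440 for Sdha. Capitals mark matches to the motifs searched on both strands, which were CGCANGCG (the core of the NRF1 site), AAGATGGCG (YY1), CCGGAAG (ETS factors), CCAAT and TATAAA. Sdha, which encodes the flavoprotein of complex II, is shown for its 3 NRF1 cores.
Cox6b1 promoter: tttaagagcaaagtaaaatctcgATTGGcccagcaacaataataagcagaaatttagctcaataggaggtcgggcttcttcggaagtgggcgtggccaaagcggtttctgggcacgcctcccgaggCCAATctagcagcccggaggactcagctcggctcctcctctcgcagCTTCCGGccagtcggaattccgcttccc
Cox6b2 promoter: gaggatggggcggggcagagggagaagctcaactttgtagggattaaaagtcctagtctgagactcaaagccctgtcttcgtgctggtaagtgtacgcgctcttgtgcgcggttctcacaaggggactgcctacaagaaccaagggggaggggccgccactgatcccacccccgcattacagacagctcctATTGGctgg
Sdha promoter: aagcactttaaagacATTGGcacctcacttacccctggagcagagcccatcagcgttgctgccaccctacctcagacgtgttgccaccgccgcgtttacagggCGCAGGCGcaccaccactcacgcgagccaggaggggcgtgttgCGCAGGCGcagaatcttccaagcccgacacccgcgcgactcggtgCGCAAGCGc
A gene counted as having a motif when any of its promoter windows matched. The NRF1 core was found in 26 of the 70 matched members, 37.1%. It was found in 9.22% of all 27025 genes with a promoter entry and in 20.97% of the 7644 genes kept among them. The YY1 motif was found in 11.4% of the matched members, against 1.64% of all genes with an entry and 4.07% of the genes kept. The ETS motif was found in 22.9% of members and 21.8% of genes kept, CCAAT in 44.3% and 42.9%, and TATAAA in 10.0% and 8.20%. Matches of different motifs can overlap, as through the AAG that the ETS and YY1 motifs share, and each was counted on its own. Kept members with an NRF1 core had a median log2 ratio of 0.49 (26 genes) and those without had 0.45 (42 genes). A match is a description of letters and not a site. Atp5a1, Cox4i1, Cox4i2, Cox6a2, Cox6c, Cox8c, Ndufa2, Ndufb9, Ndufs1, Sdhc, Uqcrb, Uqcrc2 and Uqcrq were among the members with no entry.

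Most genes of oxidative phosphorylation had a somewhat higher RPKM in the Kai1−/− library, while 3 tissue-restricted isoform genes of complex IV and the factor gene Atp5s were lower by more than 2-fold. Differences over 2-fold, in either direction, were less common among the members than among all genes kept. Of the 84 members 81 were kept, and the 3 others, Cox7b2, Cox8b and Cox8c, were listed at 0 in both libraries. Over the 81, the median log2 ratio was 0.44, with quartiles of 0.20 and 0.70, against a median of 0.08 over all genes kept. The ratio was above 0 for 71 members, where 55.1% of all genes kept were. The direction of the median depended on the scaling, since it was -0.046 with both libraries brought to an equal RPKM sum and -0.062 when scaled to Gapdh.

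By the 1.5-fold line, 29 members were higher in Kai1−/− and 5 lower, where 20.7% of all genes kept were higher and 16.2% lower. The study used a 2-fold line together with a limit on the adjusted p-value, and only the fold was applied here. By the 2-fold line alone, 3 were higher (Cox7b, Ndufv2 and Ndufa4) and 4 lower (Cox6a2, Cox4i2, Cox6b2 and Atp5s). Over all genes kept, 7.98% were higher by that line and 7.81% lower. The members' counts at the 2-fold line, and the 5 lower by 1.5-fold, were smaller shares than those of all genes kept. The members' share over 1.5-fold higher was thus 35.8% on the deposited scale, and 47 members were within 1.5-fold. It was below that of all genes at 3 other settings. With an equal RPKM sum 3 of the 81 members were over 1.5-fold higher against 6.80% of all genes, scaled to Gapdh 3 against 6.54%, and with the length trend removed 11 against 18.9%.

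**Figure D1:**
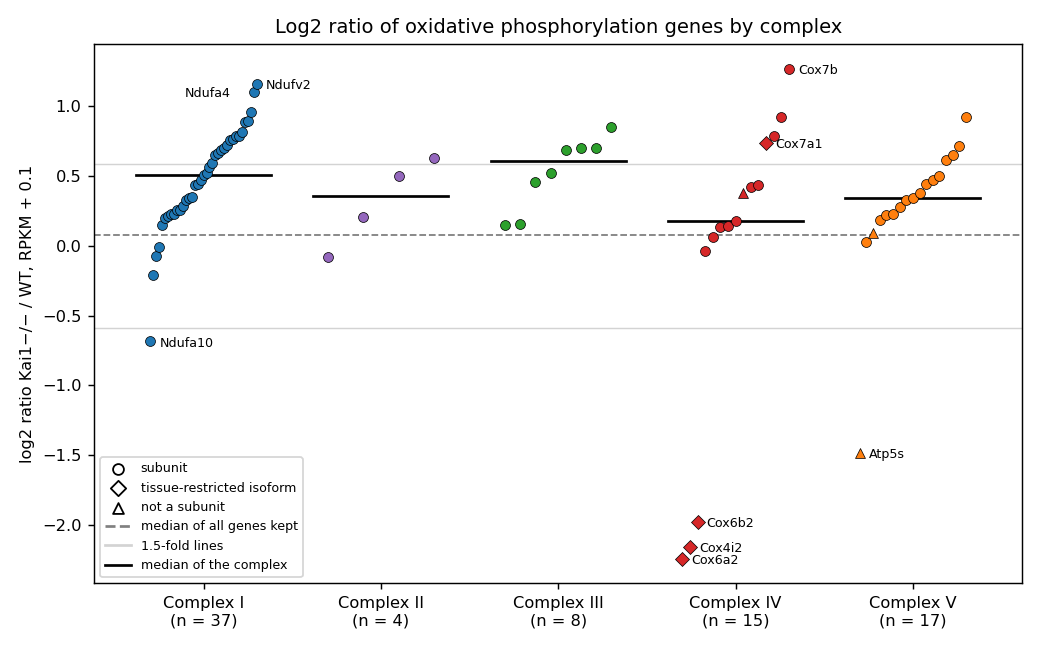
Log2 ratio of Kai1−/− over WT for each of the 81 kept members, in order of ratio within complexes I to V, with 1 point per gene and no error bar since each genotype had 1 library. Most points lie above the dashed line, the median of all genes kept at 0.08, and 3 tissue-restricted isoform genes of complex IV lie below -1.9.

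These genes were among the more abundant messages. In WT 57 members, and in Kai1−/− 61, had an RPKM of 100 or more, and 70.4% of kept members did so in WT against 8.67% of all genes kept. The members together summed to an RPKM of 47491 in WT and 62985 in Kai1−/−, a log2 ratio of 0.41, and their share of all RPKM was 5.37% and 5.08%. Their sum was thus higher and their share lower in the Kai1−/− library. Among the 922 genes that averaged 100 RPKM or more the median log2 ratio was 0.33. It was 0.44 for the 60 members among them and 0.23 for the 787 genes that were neither members nor cytosolic ribosomal proteins.

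**Figure D2:**
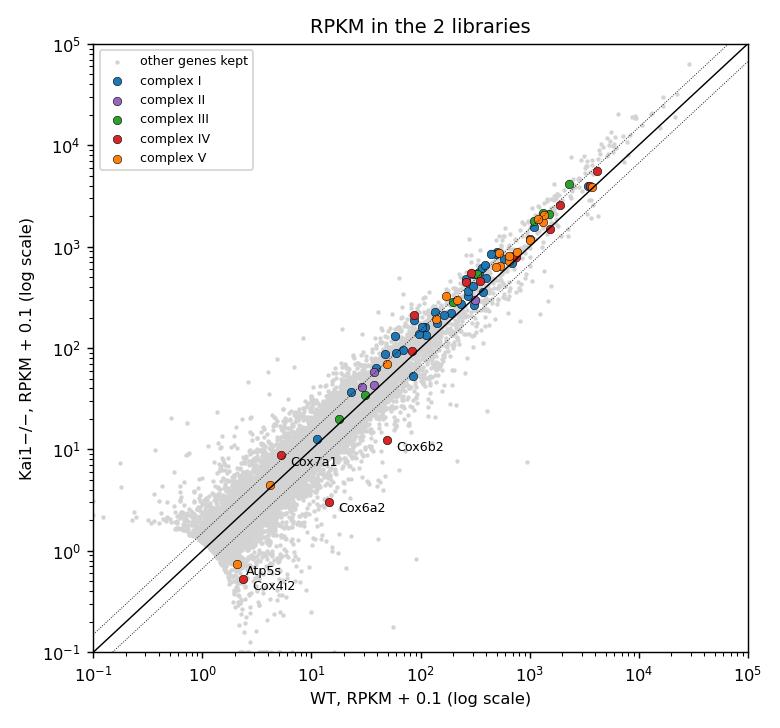
RPKM + 0.1 of every kept gene in the WT library (x, log scale) and in the Kai1−/− library (y, log scale), with members coloured by complex, the solid line at equal values and dotted lines at 1.5-fold. Members lie mostly in the upper range on or above the line, and Cox6b2, Cox6a2, Cox4i2 and Atp5s lie below it.

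Complex I, NADH dehydrogenase, showed a median ratio of 0.51 across its 37 genes on the deposited scale, with 33 above 0. Of these 37, 16 (43.2%) were over 1.5-fold higher and 1 over 1.5-fold lower, against 20.7% and 16.2% of all genes kept. The median of the complex was near 0 with an equal RPKM sum (0.022) and scaled to Gapdh (0.0059). The 7 nuclear-encoded core subunits of complex I, which include those that carry the flavin and the iron-sulfur clusters, had a median of 0.51, and the 30 others had 0.50. The core and accessory genes thus had about the same median.

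Among the core genes, Ndufv2, which holds an iron-sulfur cluster next to the flavin, had an RPKM of 58.4 in WT and 131 in Kai1−/−, a log2 ratio of 1.16. Ndufv1, the flavin-binding subunit, stood at 97.0 and 138, a ratio of 0.51. Ndufs1, the largest core subunit, stood at 11.2 and 12.5, a ratio of 0.15. Ndufv2 had the highest ratio of the complex, and Ndufs1 the lowest of the core and the lowest RPKM of all 74 broadly used subunits in WT. Ndufs3 was at 141 and 177 (ratio 0.33). Ndufs7 and Ndufs8, which carry the last iron-sulfur clusters of the chain, were at 369 and 610 (ratio 0.73) and at 343 and 560 (ratio 0.71). On the deposited scale the core genes named here were all higher in the Kai1−/− library, and their ratios spread from 0.15 to 1.16.

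Of the accessory genes, Ndufa3 had the highest RPKM of the complex, 3440 in WT and 3989 in Kai1−/−, a ratio of 0.21. Ndufa4, first assigned to complex I and since found in complex IV, was at 87.2 and 188, a ratio of 1.11. Ndufb9 was at 439 and 855, a ratio of 0.96. Ndufa10 stood apart on the lower side, at 85.2 in WT and 53.0 in Kai1−/−, a ratio of -0.68, and it was the only broadly used subunit over 1.5-fold lower. Ndufa1 (ratio -0.21), Ndufa13 (-0.07) and Ndufv3 (-0.01) were the other genes of complex I below 0. The remaining 26 accessory genes had ratios above 0, up to the value of Ndufa4.

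Complex II, succinate dehydrogenase, which also acts in the Krebs cycle, showed a median ratio of 0.36 across 4 genes, and -0.13 with an equal RPKM sum. Sdha, the flavoprotein, was at 37.7 in WT and 58.4 in Kai1−/−, a ratio of 0.63. Sdhb, the iron-sulfur subunit, was at 316 and 300, a ratio of -0.08. The catalytic pair thus lay at the opposite ends of the complex, and Sdhb had the highest RPKM in it. The membrane anchors lay between, Sdhc at 37.4 and 43.3 (ratio 0.21) and Sdhd at 29.2 and 41.5 (ratio 0.50).

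Complex III, the cytochrome bc1 complex, had a median of 0.61 on the deposited scale, and all 8 genes were above 0. Of these 8, 4 were over 1.5-fold higher, a share of 50% against 20.7% of all genes kept. Uqcr11, a small subunit, had the highest RPKM of the complex, 2319 in WT and 4197 in Kai1−/−, and the highest ratio, 0.86. The Rieske iron-sulfur protein gene Uqcrfs1 was at 17.6 and 19.7, a ratio of 0.16. The core protein genes Uqcrc1 and Uqcrc2 were at 198 and 285 (ratio 0.52) and at 30.7 and 34.2 (ratio 0.15). The Rieske gene and Uqcrc2 were the lowest in both level and ratio. Among the small subunits, Uqcrq had a ratio of 0.46 and Uqcr10, Uqcrb and Uqcrh had ratios between 0.69 and 0.70. The median of the complex was 0.12 with an equal RPKM sum and 0.11 scaled to Gapdh.

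Complex IV had the lowest median, 0.18 over 15 kept genes. Of these 15, 4 (26.7%) were over 1.5-fold higher and 3 over 1.5-fold lower, near the 20.7% and 16.2% of all genes kept. The 10 broadly used subunits of complex IV alone had a median of 0.30, with 3 over 1.5-fold higher and none lower. The median of the 15 was below 0 with an equal RPKM sum (-0.30), scaled to Gapdh (-0.32) and with the length trend removed (-0.18).

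Cox7b, on chromosome X, had the highest ratio of all members, with an RPKM of 87.4 in WT and 211 in Kai1−/−, a ratio of 1.27. Cox8a had the highest RPKM of all members, 4113 in WT and 5575 in Kai1−/−, a ratio of 0.44. Cox5a and Cox5b, subunits on the matrix side, were at 84.0 and 92.5 (ratio 0.14) and at 708 and 803 (ratio 0.18). The ratios of the broadly used subunits of complex IV thus ran from near 0 to over 2-fold. Cox6c was at 754 and 790 (ratio 0.07), and Cox7c was at 260 and 448 (ratio 0.79).

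In 3 of the pairs the tissue-restricted isoform gene was lower by more than 2-fold while its broadly used partner was within 1.5-fold. Cox4i2, the isoform of lung and of some hypoxia-exposed cells, was at an RPKM of 2.25 in WT and 0.428 in Kai1−/−, a log2 ratio of -2.16. Its partner Cox4i1 was at 1919 and 2566, a ratio of 0.42. The restricted gene gave 0.117% of the pair's RPKM in WT and 0.0167% in Kai1−/−.

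Cox6a2, the heart and skeletal muscle isoform, was at 14.4 and 2.95, a ratio of -2.24. Its partner Cox6a1 was at 3590 and 3963, a ratio of 0.14, and Cox6a2 held 0.398% and 0.0744% of the pair. Cox6b2 was at 48.9 and 12.3, a ratio of -1.98, beside Cox6b1 at 1536 and 1498, a ratio of -0.04, and held 3.08% and 0.816% of the pair. Thus all 3 restricted genes were minor contributors in both libraries, and their summed pair moved little from that of the broad gene, with log2 ratios of 0.42 for COX4, 0.14 for COX6A and -0.07 for COX6B.

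Cox7a1, the muscle and brown fat isoform, did not share this pattern. It was at an RPKM of 5.17 in WT and 8.70 in Kai1−/−, a ratio of 0.74, beside Cox7a2 at 290 and 551, a ratio of 0.92. Its counting interval ran from -0.01 to 1.54, so no difference was detectable at this depth. Cox7b2, Cox8b and Cox8c were listed at 0 in both libraries.

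The number of reads behind these low genes was estimated as 35 in WT and 6 in Kai1−/− for Cox4i2, 194 and 36 for Cox6a2, and 506 and 115 for Cox6b2. The 95% counting intervals of the log2 ratio were -3.94 to -1.13, -2.84 to -1.76 and -2.29 to -1.69. These intervals cover counting error only and not the difference between cultures. The 3 genes were lower by more than 2-fold at each scaling and pseudocount tried, including -1.19 for Cox4i2 with a pseudocount of 1. Cox4i2 lies at chr2:152579909-152590773, Cox6a2 at chr7:135348950-135349880 and Cox6b2 at chr7:4703396-4704696 of mm9. The annotated exons of Cox6a2 overlap those of Itgad on the opposite strand by 66 bases, and Itgad was listed at 0 in both libraries.

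Marker lists were read for striated muscle and brown fat, and none for lung or testis. Of 10 striated muscle markers 4 were kept, of which Acta1 was at 15.3 in WT and 0.888 in Kai1−/− and Tnnt2 at 62.6 and 132, while the cardiac myosin genes Myh6 and Myh7 were listed at 0. Of 8 brown adipocyte markers 2 were kept, Fabp4 at 10.6 in WT and 4.53 in Kai1−/− and Cpt1b at 30.9 and 26.8, and Ucp1, Cidea and Adipoq were listed at 0 in both libraries.

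**Figure D3:**
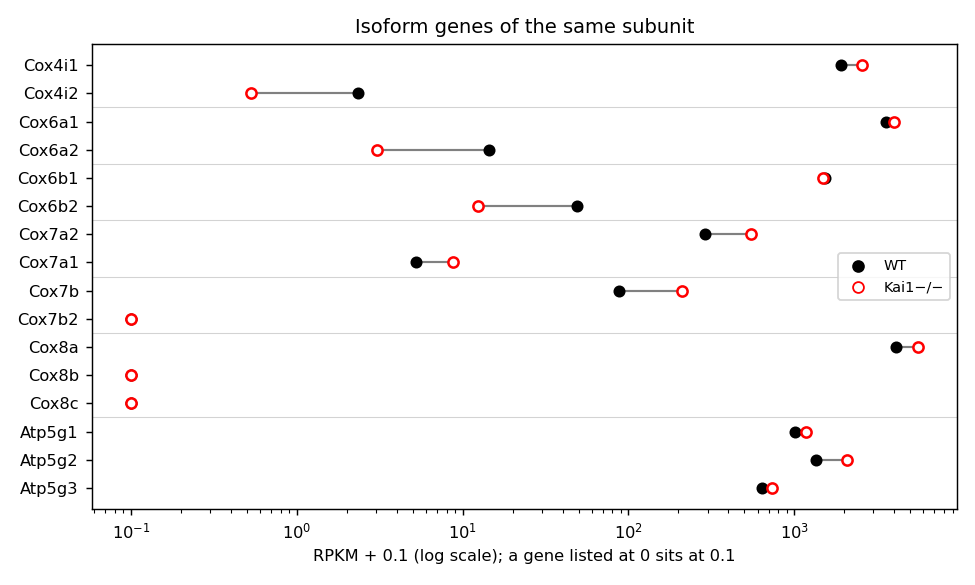
RPKM + 0.1 (x, log scale) of each isoform gene of 7 subunits in the WT library (filled) and the Kai1−/− library (open), joined by a line, 1 library each. Cox4i2, Cox6a2 and Cox6b2 lie lower in Kai1−/−, while their partners nearly coincide or lie higher, and the 3 genes listed at 0 sit at 0.1.

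Complex V had a median of 0.35 over 17 kept genes, with 16 above 0, and the median was -0.14 with an equal RPKM sum and -0.16 scaled to Gapdh. On the deposited scale 4 of the 17 were over 1.5-fold higher, a share near the 20.7% of all genes, and 1 was over 1.5-fold lower. The catalytic part, F1, had a median of 0.45 over 5 genes. Atp5b, the catalytic beta subunit, was at an RPKM of 523 in WT and 861 in Kai1−/−, a ratio of 0.72. Atp5a1, the alpha subunit, was at 216 and 295, a ratio of 0.45. Atp5c1, the rotating gamma subunit, was at 173 and 328, the highest ratio of the complex at 0.92. On the deposited scale the genes of F1 all lay above 0, with Atp5d at 0.38 and Atp5e at 0.22 the lowest.

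The 3 genes of the c ring, the rotor in the membrane, encode the same mature protein with different import signals. Atp5g1 was at 1003 in WT and 1175 in Kai1−/− (ratio 0.23), Atp5g2 at 1346 and 2066 (ratio 0.62) and Atp5g3 at 642 and 730 (ratio 0.19). Atp5g2 gave 45.0% of the trio's RPKM in WT and 52.0% in Kai1−/−, and the shares of Atp5g1 and Atp5g3 were lower by a few points. The trio's sum had a log2 ratio of 0.41. Since Atp5g2 has 3 near-identical copies in the genome and Atp5g1 has 1, their values and the trio's shares are uncertain.

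Of the other ATP synthase genes, Atp5k had the highest RPKM, 3763 in WT and 3844 in Kai1−/−, and the lowest ratio among the subunits, 0.03. The 7 genes of the stalk and membrane part had a median of 0.35. Atp5s, a factor associated with the coupling of the enzyme and not a subunit of it, was at 1.97 and 0.642, a ratio of -1.48, with an estimated 75 and 22 reads and a counting interval of -2.38 to -0.92. With a pseudocount of 1 its ratio was -0.86, which is within 2-fold. Atp5sl, now known as a complex I assembly factor, was at 4.07 and 4.36, a ratio of 0.10, and Cox7a2l, a supercomplex factor, was at 352 and 458, a ratio of 0.38.

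Counting intervals were made for the members alone, so the next counts have no share over all genes kept beside them. Most members had many reads, so that even a small ratio could have an interval clear of 0. By counting error alone and on the deposited scale, 68 members had an interval above 0, 9 below it and 4 across it, with a median half-width of 0.05 on the log2 scale. The choice of scaling moved the members' median by more than that, from 0.44 to -0.046 or -0.062, and the spread between cultures was not measured. Near-identical copies without introns were found for 21 members, 44 copies in all, and Atp5l had the most, 8. Cox7c had 4, and Cox7b, Uqcr11 and Atp5k had 2 each. Reads could be split between a gene and its copy. The median was 0.44 for the members with copies and 0.44 for those without. For the 14 members whose exons overlap another gene it was 0.33, and 0.45 for the rest. Whether the counting used strand is not given in the sources used here, so those values are uncertain.

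These genes are short, with a median transcript of 729.5 bases (351 to 3171) against 2601 for all genes kept, and 46 members are under 800 bases. Across all genes the median ratio was 0.27 for the shortest 1913 genes (up to 1447 bases) and 0.13 and 0.06 for the next longer groups of that size, so ratios were higher for shorter genes. Within the members, the shortest, middle and longest 27 genes had medians of 0.35, 0.47 and 0.45, and the ratio and log2 length correlated with a Pearson r of 0.03 and a Spearman rho of 0.03 over 81 genes of the same 2 libraries. With the length trend removed, the members' median was 0.15. The part of transcript length in the members' median was not tested.

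Of 3 members on chromosome X, Ndufb11 was at 259 in WT and 480 in Kai1−/− (ratio 0.89), Ndufa1 at 309 and 267, and Cox7b as above. Beside the Y-linked genes at 0 in the Kai1−/− library, the 272 kept genes of chromosome X showed a median ratio of 0.08. Without the 3 genes the median of the other 78 members was 0.44. The sex of the animals and the genotype cannot be told apart here.

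The median shift of the members was compared with that of related lists. Over all genes kept, 20.7% were over 1.5-fold higher and 16.2% lower. Complex assembly factors (35 genes) had a median of 0.26, from Cox18 at -0.71 to Nubpl at 1.29. Among these factors 9 (25.7%) were over 1.5-fold higher, near the share of all genes, and 1 was lower. Electron carriers and other parts (22 kept genes) had a median of 0.45, with Cyc1, the cytochrome c1 of complex III, at 283 in WT and 449 in Kai1−/−. Ndufa4l2, a paralogue of Ndufa4 known to be induced by hypoxia, was the lowest of them, at 5.87 and 0.493, a ratio of -3.33, and Atpif1, which inhibits the ATP synthase, was the highest, at 0.92. Mitochondrial ribosomal proteins (74 genes) had a median of 0.51, from Mrps14 at -1.01 to Mrpl14 at 1.15, with 30 over 1.5-fold higher and 1 lower. Glycolysis genes (13 kept) had a median of 0.50, from Hk2 at -1.53 to Eno1 at 1.08, and Gapdh at 0.50. Cytosolic ribosomal proteins had the highest median, 0.85 over 76 genes, from Rpl37a at 0.01 to Rps24 at 1.66, with all 76 above 0. The members thus lay between the list medians and not outside them.

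**Figure D4:**
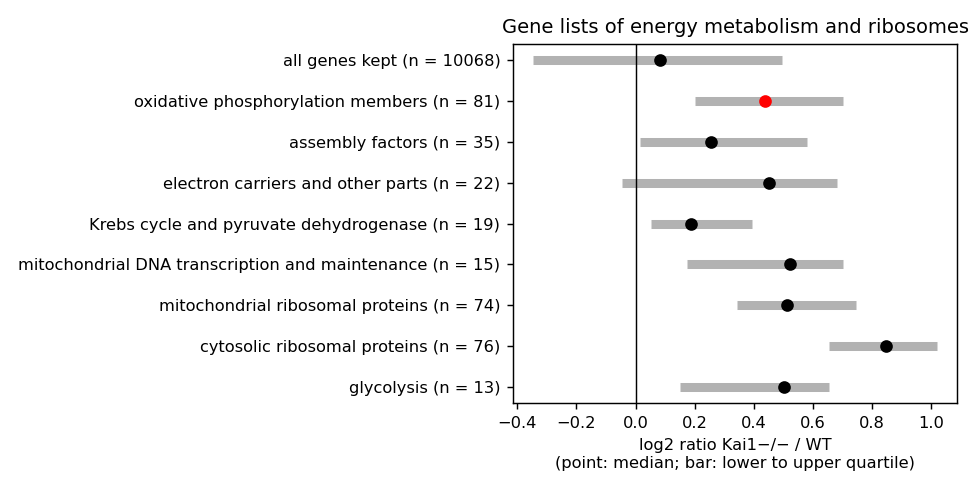
Median (point) and quartiles (bar) of the log2 ratio of Kai1−/− over WT for all kept genes, the 81 members and 7 other gene lists, 1 library per genotype. The members' median of 0.44 lies above the 0.08 of all genes and below the 0.85 of cytosolic ribosomal proteins.

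The position of the whole set depended on how the libraries were brought to a common scale, and so did the direction of its median. With the median of all genes set to 0 the members' median was 0.36, with equal upper quartiles 0.31, and with an equal sum of RPKM outside the ribosomal proteins 0.24. Complex III had the highest median of the complexes at each scaling, but with the length trend removed complex II (0.2965) was marginally above it (0.2911). Complex IV had the lowest median in every one of these settings, and the members' median was above that of all genes kept in each.

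**Figure D5:**
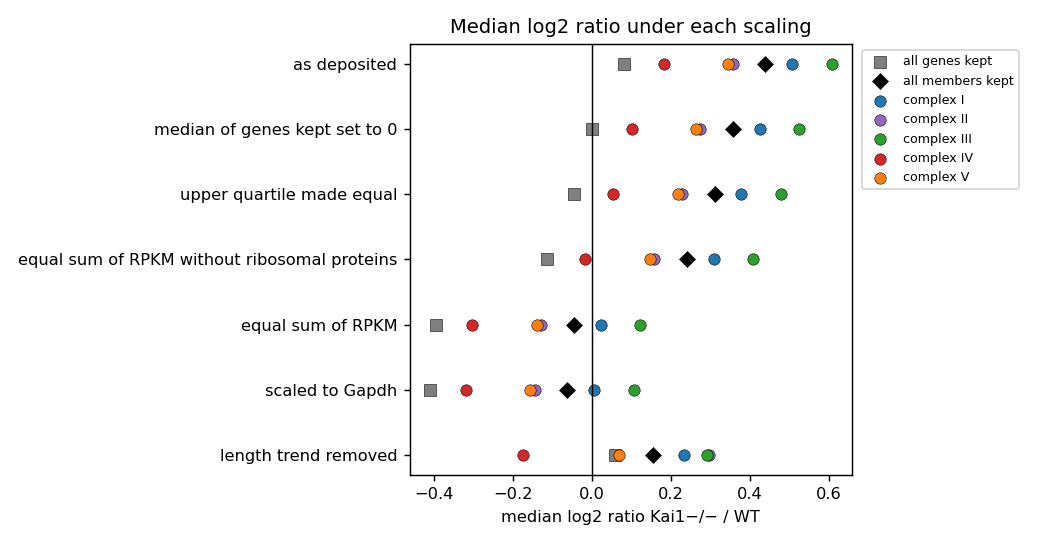
Median log2 ratio of Kai1−/− over WT for all kept genes, for the members and for each complex as deposited, under 5 other scalings and with the length trend removed. Complexes III and I lie to the right of 0 in each. Complex I does so only by 0.022 with an equal RPKM sum and by 0.0059 scaled to Gapdh. The members' median lies left of 0 with an equal RPKM sum (-0.046) and scaled to Gapdh (-0.062).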

How the data were processed

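RNA was sequenced from cultured aortic PCs, 1 WT and 1 Kai1−/−. Reads were placed by the authors on mm9 (NCBI37) with TopHat2 2.0.9 and Bowtie, and the authors deposited 1 RPKM value per RefSeq gene and library, with Cufflinks named for the measurement. Read length, library type, strand use and depth are not given in the sources used here. Rows without a symbol (38 of 20462) were left out and repeated symbols averaged.

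Members were chosen by symbol, and the members and gene lists were chosen with earlier results of these data known. The genes named were core subunits, isoform genes, the extremes of each complex and list, and all members over 2-fold; others were added after their values were seen, and 1 core subunit gene is not reported here. No p-value was computed, as each genotype had 1 library. The depth and reads per gene were estimated from whole-read steps in low values with a fragment length of 200 bases: 81.3% of 423 WT and 80.5% of 231 Kai1−/− low values fell no more than 0.15 from a whole number of reads. The exact binomial 95% intervals made from them hold counting error alone. Copies were found with BLAST 2.17.0 at 95% identity over 80% of the coding sequence. Gene models came from GENCODE M1 on NCBI37. Length trends were removed by lowess (fraction 0.3). Scripts, tested on simulated data, used Python 3.11.15, pandas 2.3.3, numpy 2.4.6, scipy 1.17.1, statsmodels 0.14.6 and matplotlib 3.10.9. Alternatives were other pseudocounts, filters, scalings and gene subsets.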

Additional observations from a re-analysis of the deposited data

How the results depend on the processing

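No paired analysis was possible because there was 1 library for each genotype, and for the same reason no replicate could be left out. Pseudocounts of 1 and 0.01 left the members' median at 0.44. With a pseudocount of 1 the ratio of Atp5s was -0.86, so that it was no longer over 2-fold lower. With an equal RPKM sum and scaled to Gapdh, the members' median was -0.046 and -0.062, and the median of all genes was -0.39 and -0.41. The members over 1.5-fold higher numbered 3 and 3, against 6.80% and 6.54% of all genes kept, and those over 2-fold higher 0 and 0. The medians were -0.13 and -0.14 for complex II, -0.30 and -0.32 for complex IV and -0.14 and -0.16 for complex V. With the median of all genes at 0 the members' median was 0.36. With equal upper quartiles it was 0.31, and -0.045 for all genes, and 18 members were over 1.5-fold higher against 15.6% of all genes kept. With the length trend removed the members' median was 0.15 and complex IV was at -0.18. At that setting 11 members were over 1.5-fold higher against 18.9% of all genes kept. With a mean RPKM of at least 5, 3 members were over 1.5-fold lower, against 12.8% of all genes kept, and 2 over 2-fold lower. Cox4i2 and Atp5s no longer passed that filter. Of 4 alternatives added after seeing the data, an equal sum outside the ribosomal proteins gave a median of 0.24. The median of all genes was then -0.11 and that of complex IV -0.016. At that scaling 13 of the 81 members were over 1.5-fold higher, near the 13.4% of all genes kept, and 1 was over 2-fold higher. The share of all genes over 2-fold is not given for the alternatives. Broadly used subunits alone gave 1 member over 1.5-fold and 0 over 2-fold lower. Leaving out members with near-identical copies or exon overlap kept the median at 0.44 and 0.45. Depth limits the ratios of genes with few reads, Cox4i2 above all, and the cause of the scaling dependence was not tested.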

Other observations

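Genes of mitochondrial DNA transcription and maintenance showed a median log2 ratio of 0.52 across 15 kept genes. In the Kai1−/− library 6 (40%) were over 1.5-fold higher and 1 lower, against 20.7% and 16.2% of all genes kept. Tfam, which packages and helps transcribe mitochondrial DNA, was at an RPKM of 1.82 in WT and 4.12 in Kai1−/−, a ratio of 1.13. Tfb2m, a transcription factor of the same promoters, was at 5.87 and 2.997, a ratio of -0.95. The 2 genes therefore lay at opposite ends of the list. Nrf1 was at 5.66 and 8.82, a ratio of 0.63, and the coactivator genes Ppargc1a and Ppargc1b were under 0.1 in both libraries.

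Genes of the Krebs cycle and pyruvate dehydrogenase had a median of 0.19 over 19 genes, with 16 above 0. Among these genes 2 (10.5%) were over 1.5-fold higher, below the 20.7% of all genes kept. Idh2, the mitochondrial NADP isocitrate dehydrogenase, was at 26.1 and 54.0, a ratio of 1.04. Pcx, pyruvate carboxylase, was at 4.22 and 3.58, a ratio of -0.23. The 2 genes were the highest and lowest of the list.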
